A study of Mus musculus with 8 samples.

Results

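Laminin and integrin genes were examined in mouse colon inflamed by dextran sulfate sodium (DSS), which damages the gut lining of mice that take it in. The members are the laminin chain genes (Lama, Lamb and Lamc) and the integrin subunit genes (Itga and Itgb) of the deposited expression table, chosen by gene name. The integrins Itga4, Itgb7, Itgae and Itgam, whose names match too, were left out. This gave 33 genes of the 18262 in the table, of which 11 were laminins and 22 were integrins. The DSS + GAA group held 4 libraries of mice given DSS and, at 20 mg/kg, GAA, which is ganoderic acid A, a compound of Ganoderma fungi. The DSS group held 4 libraries from mice with colitis and no GAA in their labels. All 8 libraries were from colon, the genotype of both groups was WT, and each group carried the replicate numbers 1, 2, 4 and 5. The treatment labels of the DSS + GAA libraries read 20, 21, 22 and 23 mg/kg, while the titles and protocol give 20 mg/kg, and the 4 were kept as 1 group. The strain, sex and age of the mice and the DSS dose are not given in the sources used here. Mice without colitis are not analysed here, so every value concerns colon with colitis.

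Laminins are large secreted proteins that assemble from an alpha, a beta and a gamma chain and form, with collagen IV, the sheet of basement membrane under epithelia and around vessels, muscle and nerve. Integrins are cell surface receptors built from an alpha and a beta subunit, and they tie the matrix or another cell to the cytoskeleton. The pair chosen sets the ligand: some pairs bind laminins, some collagens, some proteins with an arginine-glycine-aspartate motif such as fibronectin, and the leukocyte pairs bind proteins of other cells. In the gut a trimer that holds Lama3 and Lamb3 lies under the surface epithelium, where the Itga6-Itgb4 pair grips it in hemidesmosomes. Trimers with Lama4 or Lama5 and Lamb1 and Lamc1 lie around crypts, vessels and stromal cells, and those with Lama5 lie under epithelium too.

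Gene levels were deposited as TPM, each gene's share of a library's transcripts after correction for transcript length, on a fixed total. Of the members, 30 passed the filter of at least 1 TPM in at least 4 libraries and were tested. Lamc3, Itga11 and Itgad were below it. Itga2b passed through the DSS libraries alone, and Itgb8 exceeded 1 TPM in 2 of the 4 DSS + GAA libraries. A gene was called when its limma p, adjusted over all 14217 tested genes, was under 0.05. Log2 fold changes are DSS + GAA over DSS on the log2(TPM + 1) scale, which understates the change of low genes. TPM keeps no record of sequencing depth, so the depth behind each value is unknown.

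Of the 30 tested members, 17 were lower in DSS + GAA than in DSS colon, 0 were higher and 13 were not called by limma. The 17 include Itga2b, whose direction was fixed by the filter. Among all tested genes 28.2% were called lower and 5.96% higher, while 56.7% of the tested members were called lower. At an unadjusted limma p under 0.05, 18 members were lower and 1, Lamb3, was higher, beside 37.2% of all tested genes lower and 8.81% higher at that threshold. The lower calls took in 7 of 10 tested laminins and 10 of 20 tested integrins. The median log2 fold change was -0.85 over the members, -1.15 over the laminins and -0.67 over the integrins, beside -0.25 over all tested genes. Relative to that general shift the median was -0.60 over the members, -0.90 over the laminins and -0.42 over the integrins. The counts depended on how libraries were scaled to each other: scaling by a trimmed mean gave 8 lower and 2 higher members (all genes 11.6% lower, 13.3% higher), quantile normalization 8 and 2 (11.3% and 11.8%), and median centring 6 and 3 (9.2% and 15.2%). Leaving out 1 library also moved the count, and the share of all genes called lower moved with it. Without DSS 1, 5 of 29 tested members were lower (12% of all genes). Without DSS + GAA 4 the count was 8 of 30 (20.3%), without DSS 4 it was 8 of 29 (19.1%), without DSS + GAA 2 it was 10 of 30 (17.2%), without DSS + GAA 5 it was 10 of 30 (21.3%), and without DSS 2 it was 11 of 29 (23.7%). Lama5, Itga7, Itga1, Itga5 and Itgb8 passed in every alternative, and each of the other 12 lower calls was lost in at least 1. The calls of Lama1, Lama2, Lama4, Lamb1, Lamb2, Lamc1, Itgb1, Itga2 and Itga9 were each lost with trimmed mean scaling, with median centring and without DSS 1. The Itga10 call was lost with quantile normalization, median centring and without DSS 1. The Itga2b call was lost with quantile normalization, median centring and without DSS + GAA 2, 4 or 5.

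Promoter windows of the members on which the results turn are shown to set genes called lower beside one that was not called. The windows are RefSeq sequences of GRCm38.p6, 300 bases long, from 250 bases before to 50 after a RefSeq transcript start, printed 5′ to 3′ on the gene's strand. Capitals mark GC boxes (GGGCGG, or CCGCCC on the other strand). Itgb8 had the most negative fold change of the members, Itga5 the next, Lama5 was the laminin that passed in every alternative, and Lamb1 and Lamb3 are beta chains of which the first was lower and the second was not called. Of 2 windows listed for Lamb3, the upstream one is given. RefSeq and GENCODE starts differ for some genes: the start in the Lamb3 window lies 94.3 kb inside the GENCODE gene given below, and that in the Itgb8 window 526 bases inside.
Itgb8, chr12:119238227-119238526, minus strand: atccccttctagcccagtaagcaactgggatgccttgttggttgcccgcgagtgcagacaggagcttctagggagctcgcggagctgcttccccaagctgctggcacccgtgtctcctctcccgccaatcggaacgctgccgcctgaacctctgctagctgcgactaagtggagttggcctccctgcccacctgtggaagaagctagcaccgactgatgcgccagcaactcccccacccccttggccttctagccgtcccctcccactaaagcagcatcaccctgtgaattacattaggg
Itga5, chr15:103366742-103367041, minus strand: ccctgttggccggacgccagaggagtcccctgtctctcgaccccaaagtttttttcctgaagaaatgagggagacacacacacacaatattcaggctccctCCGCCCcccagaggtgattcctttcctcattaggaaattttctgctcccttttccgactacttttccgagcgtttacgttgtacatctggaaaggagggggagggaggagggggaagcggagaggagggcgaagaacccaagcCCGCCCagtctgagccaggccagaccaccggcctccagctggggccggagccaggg
Lama5, chr2:180225810-180226109, minus strand: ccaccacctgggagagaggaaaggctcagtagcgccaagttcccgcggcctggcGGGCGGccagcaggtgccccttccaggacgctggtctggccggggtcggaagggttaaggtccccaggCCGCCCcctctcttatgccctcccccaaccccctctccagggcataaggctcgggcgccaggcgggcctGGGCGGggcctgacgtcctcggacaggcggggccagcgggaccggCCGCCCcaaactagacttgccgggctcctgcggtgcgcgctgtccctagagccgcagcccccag
Lamb1, chr12:31265043-31265342, plus strand: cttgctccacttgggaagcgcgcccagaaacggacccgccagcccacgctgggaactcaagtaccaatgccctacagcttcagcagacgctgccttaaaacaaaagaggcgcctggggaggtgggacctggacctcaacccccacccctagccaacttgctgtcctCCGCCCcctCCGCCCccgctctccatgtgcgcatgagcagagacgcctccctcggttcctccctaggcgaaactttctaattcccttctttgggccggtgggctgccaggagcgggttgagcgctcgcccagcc
Lamb3, chr1:193301744-193302043, plus strand: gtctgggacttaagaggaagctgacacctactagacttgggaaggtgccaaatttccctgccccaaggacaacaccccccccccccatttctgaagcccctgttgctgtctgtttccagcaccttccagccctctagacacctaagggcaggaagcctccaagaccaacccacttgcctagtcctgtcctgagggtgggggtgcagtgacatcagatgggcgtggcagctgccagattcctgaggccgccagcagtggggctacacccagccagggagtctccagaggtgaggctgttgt

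The Lama5 window held 4 GC boxes, the Itga5 and Lamb1 windows 2 each, and the Itgb8 and Lamb3 windows 0 each. Windows were listed for 20 of the 33 members, 23 in all, and 10 of them, from 9 genes, held a GC box, beside 35.7% of all 32851 windows of the same length. The half-site AGGTCA, bound by nuclear receptors of the ROR family named in the series title, was found on either strand in 0 of the 23 member windows and in 16.3% of all windows. That count says only that these letters are not in these windows. The GC content was 60.7% for Itgb8, 58.7% for Itga5, 72.7% for Lama5, 63.7% for Lamb1 and 59.3% for Lamb3, beside a median of 52.7% over all windows.

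**Figure D1:**
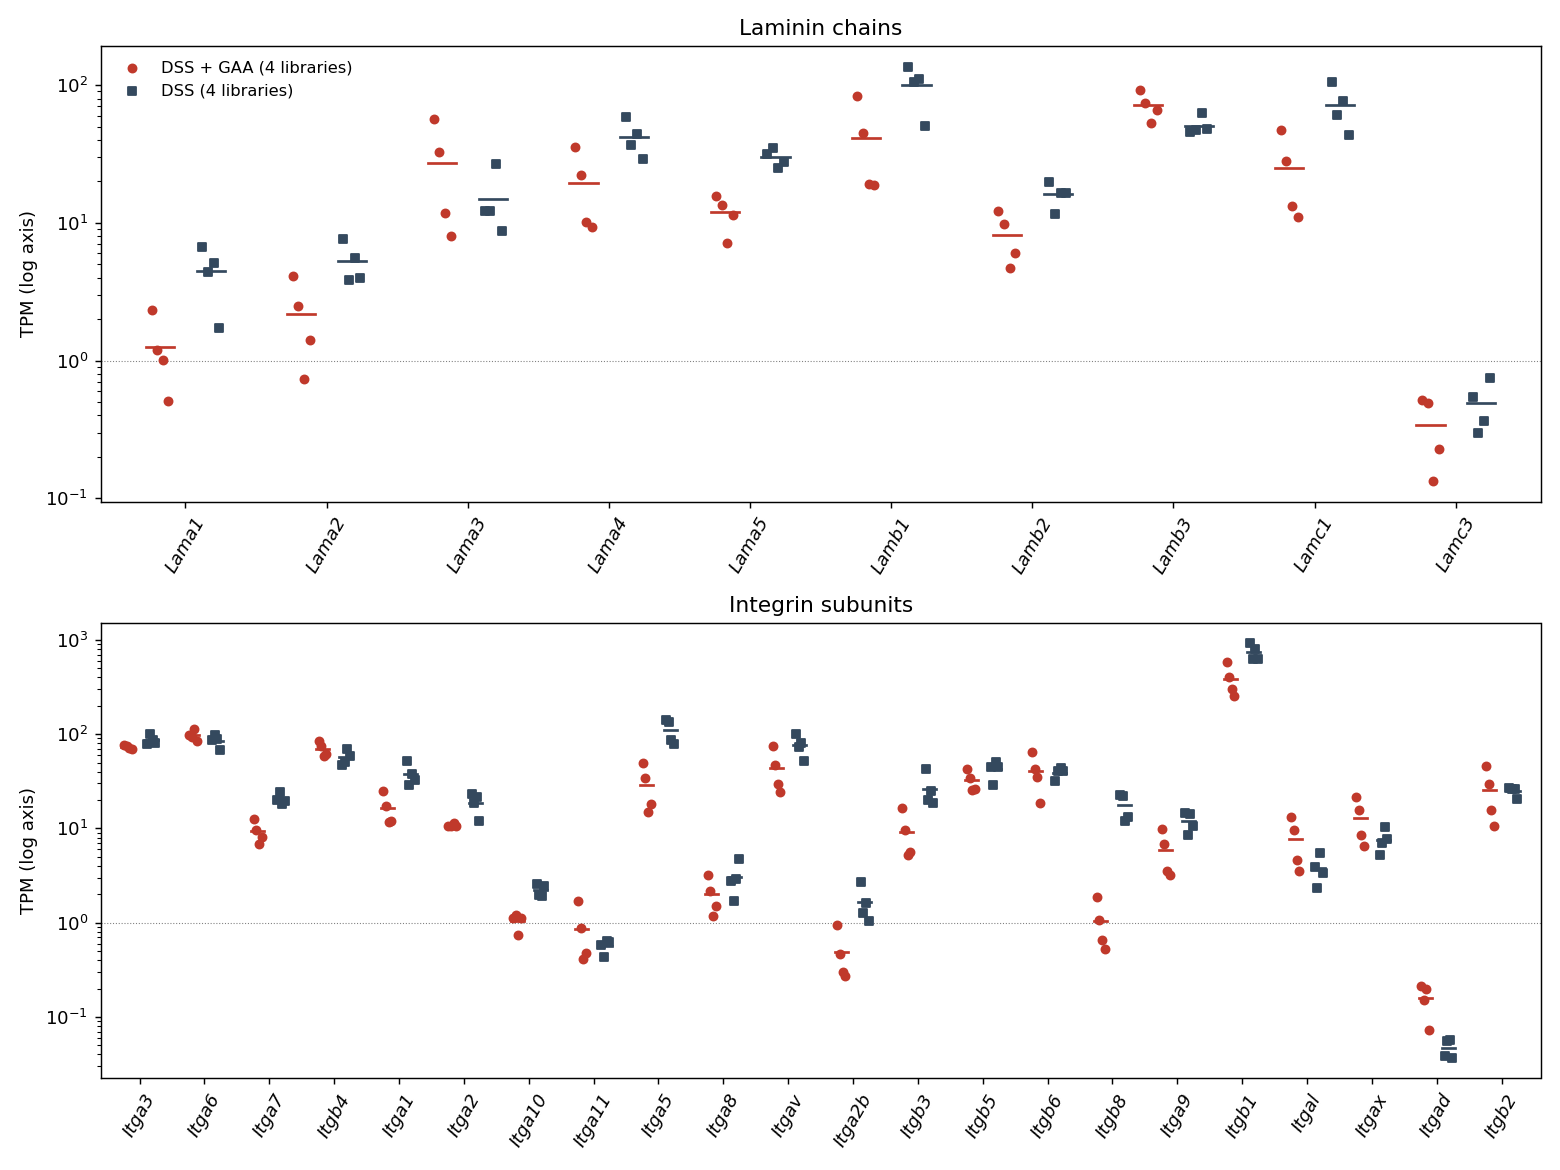
Levels of the members in each library, as TPM on a log10 axis, with DSS + GAA libraries (circles) left of DSS libraries (squares) within each gene, a bar at each group's mean and a dotted line at 1 TPM. Itgb8 and Itga5 show separate groups, while Lama3 and Itgb6 overlap.

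The laminin alpha chains divided into 4 that were lower in DSS + GAA colon (Lama1, Lama2, Lama4 and Lama5) and 1, Lama3, that was not called. Lama5, the alpha chain of most adult epithelial and vessel basement membranes, lies on chromosome 2 (180176373-180225859, minus strand). It had 15.6, 13.6, 7.15 and 11.3 TPM in DSS + GAA libraries, against 31.6, 35.2, 25.05 and 27.7 TPM in DSS libraries. Every DSS + GAA library was below every DSS library. The log2 fold change was -1.29 ± 0.22 (SE, limma adjusted p = 0.00604), and the call held in every alternative. Of the alpha chains, Lama5 alone had groups that did not overlap.

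Lama4, the alpha chain of capillary and mesenchymal basement membranes, had 35.8, 22.3, 10.2 and 9.29 TPM in DSS + GAA libraries, against 58.8, 36.9, 44.4 and 29.2 TPM in DSS libraries. The groups overlapped through DSS + GAA 1 and DSS 5. Its log2 fold change was -1.25 ± 0.40 (SE, limma adjusted p = 0.0406). Lama1, typical of embryonic basement membranes, averaged 1.26 ± 0.762 TPM in DSS + GAA and 4.48 ± 2.09 TPM in DSS (SD, n = 4 each), a log2 fold change of -1.24 ± 0.35 (SE, limma adjusted p = 0.0244). Lama2, the chain of muscle and peripheral nerve, averaged 2.19 ± 1.47 TPM in DSS + GAA and 5.29 ± 1.77 TPM in DSS, a log2 fold change of -1.06 ± 0.34 (SE, limma adjusted p = 0.0391). Both are low-level genes beside Lama4, and the groups of each overlapped in at least 1 library.

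Lama3, the alpha chain of the hemidesmosome laminin, had 56.7, 32.9, 11.7 and 8.06 TPM in DSS + GAA libraries, against 12.1, 12.3, 26.7 and 8.69 TPM in DSS libraries. DSS + GAA 1 was the highest of the 8 and DSS + GAA 5 the lowest, so the DSS + GAA group enclosed the DSS group. The fitted log2 fold change was 0.57 ± 0.57 (SE, limma adjusted p = 0.464).

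Among the beta chains, Lamb1 and Lamb2 were lower in DSS + GAA colon and Lamb3 was not. Lamb1, the beta chain of most stromal and vascular laminins (chromosome 12, 31265234-31329644, plus strand), had 83.1, 44.9, 19.2 and 18.9 TPM in DSS + GAA libraries, against 136, 106, 110 and 50.4 TPM in DSS libraries. DSS + GAA 4 and 5 were under every DSS library by a wide margin, while DSS + GAA 1 lay above DSS 5. The log2 fold change was -1.44 ± 0.48 (SE, limma adjusted p = 0.0463), the call nearest the threshold. Lamb2, found in muscle, nerve and vessel basement membranes, averaged 8.18 ± 3.42 TPM in DSS + GAA and 16.1 ± 3.34 TPM in DSS (SD, n = 4 each), a log2 fold change of -0.95 ± 0.27 (SE, limma adjusted p = 0.0274).

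Lamb3, the beta chain of the hemidesmosome laminin (chromosome 1, 193207699-193343878, plus strand), had 92.9, 73.7, 53.1 and 65.6 TPM in DSS + GAA libraries, against 45.6, 47.2, 62.3 and 48.1 TPM in DSS libraries. DSS + GAA 4 lay below DSS 4, and the other DSS + GAA libraries lay above all DSS libraries. The fitted log2 fold change was 0.46 ± 0.18 (SE, limma adjusted p = 0.0720), short of the threshold. It passed as higher with trimmed mean scaling (limma adjusted p = 0.0294), quantile normalization (0.0491), median centring (0.0221) and removal of length and GC trends (0.0486), and without DSS + GAA 4.

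Lamc1, a gamma chain, was lower in DSS + GAA colon. The gene (chromosome 1, 153218922-153332786, minus strand) encodes the gamma chain of most stromal and vascular laminins. Lamc1 had 46.9, 28.4, 13.3 and 11.04 TPM in DSS + GAA libraries, against 105, 60.5, 76.5 and 43.1 TPM in DSS libraries. DSS + GAA 1 lay above DSS 5, and the other 3 DSS + GAA libraries lay below all DSS libraries. The log2 fold change was -1.63 ± 0.44 (SE, limma adjusted p = 0.0216), the most negative of the laminins. Lamc3, a minor gamma chain, was at 0.134 to 0.515 TPM in DSS + GAA and 0.300 to 0.754 TPM in DSS and was not tested.

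The makeup of the alpha and beta chain classes differed between the groups, given here as a description with no test. Lama3 made up 39.8 ± 10.2% of the summed alpha chain TPM in DSS + GAA and 15.2 ± 6.63% in DSS (SD, n = 4 each), with ranges of 26.3% to 49.5% in DSS + GAA and 10.4% to 24.98% in DSS. Lamb3 made up 62.0 ± 10.6% of the beta chain sum in DSS + GAA and 31.5 ± 8.08% in DSS, with ranges of 49.3% to 72.4% in DSS + GAA and 22.6% to 41.8% in DSS. In both classes the chain of the hemidesmosome laminin took a larger share in every DSS + GAA library than in any DSS library. Lama4 took 31.3 ± 1.16% of the alpha chain sum in DSS + GAA and 43.2 ± 4.81% in DSS.

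**Figure D2:**
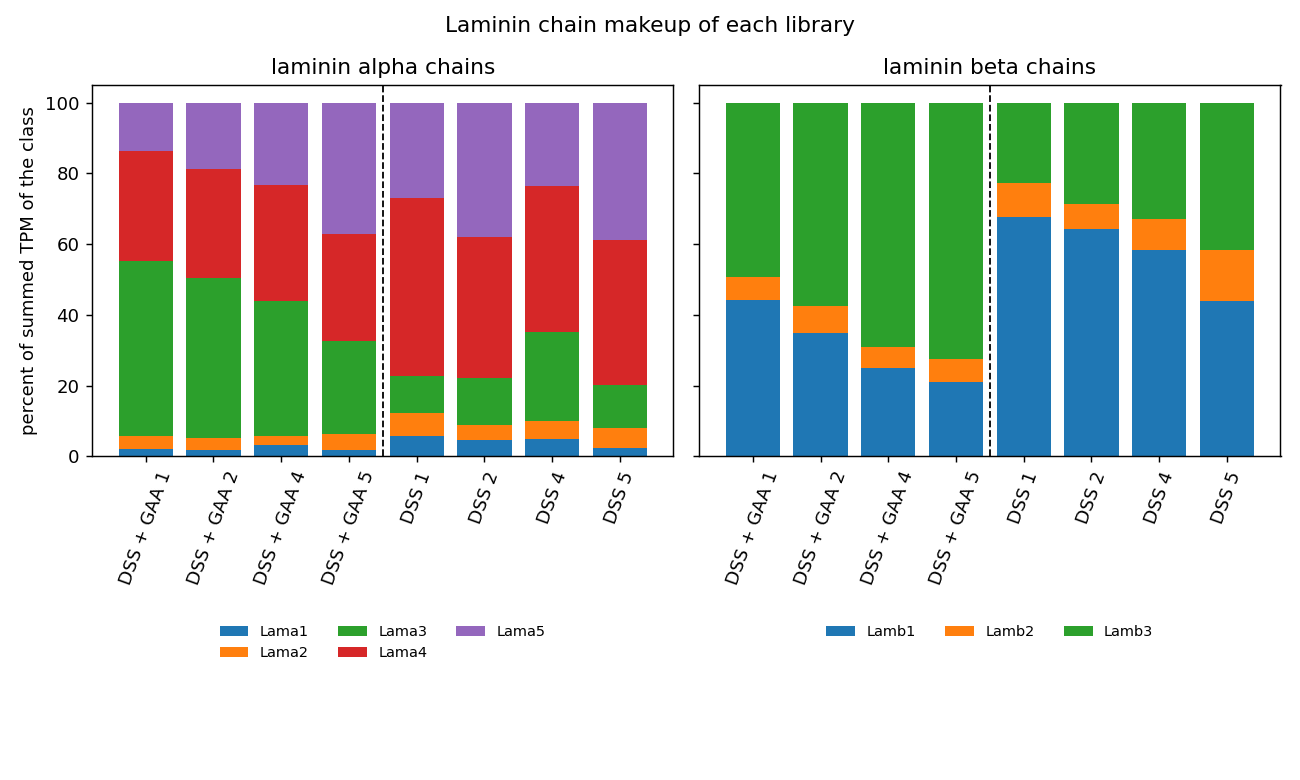
Share of each laminin alpha and beta chain in the summed TPM of its class, in percent, for each library, with DSS + GAA libraries left of the dashed line and DSS libraries right of it. Lama3 and Lamb3 took larger shares in each DSS + GAA library than in each DSS library.

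Between single chains, the log2 ratio of Lamb3 to Lamb1 was 1.03 ± 0.74 in DSS + GAA and -0.91 ± 0.64 in DSS (SD, n = 4 each), a difference of 1.94, and the groups did not overlap. The log2 ratio of Lama3 to Lama4 was 0.31 ± 0.39 in DSS + GAA and -1.59 ± 0.64 in DSS, a difference of 1.89, again with no overlap. Lama3 to Lama5 overlapped between the groups, and so did Lama3 to Lamb3, at -1.77 ± 1.04 in DSS + GAA and -1.89 ± 0.51 in DSS.

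The laminin-binding integrins were near level as a set, with a summed TPM of 223 to 272 in DSS + GAA and 226 to 273 in DSS, and 1 of 4 was called. Itga7 (chromosome 10, 128933818-128958282, plus strand), the laminin receptor of muscle, was the exception. It had 12.7, 9.63, 6.76 and 8.12 TPM in DSS + GAA libraries, against 20.0, 24.5, 18.0 and 19.8 TPM in DSS libraries, and every DSS + GAA library was lower. The fitted log2 fold change was -1.09 ± 0.19 (SE, limma adjusted p = 0.00616), and the call held in every alternative. An exon of Itga7 overlaps Mettl7b on the opposite strand, whose mean was 74.3 TPM in DSS + GAA and 69.0 TPM in DSS and which was not called (limma adjusted p = 0.678). No label states that the libraries were stranded, so reads of the overlap could come from either gene.

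The epithelial laminin receptors were not called. Itga6, the alpha subunit of the hemidesmosome, had 98.3, 92.4, 114 and 83.7 TPM in DSS + GAA libraries, against 86.4, 97.0, 88.6 and 67.9 TPM in DSS libraries (log2 fold change 0.19 ± 0.15 SE, limma adjusted p = 0.323). Its partner Itgb4 had 84.0, 74.7, 58.1 and 61.4 TPM in DSS + GAA libraries, against 47.7, 50.9, 69.2 and 58.5 TPM in DSS libraries (log2 fold change 0.29 ± 0.16 SE, limma adjusted p = 0.187). Both overlapped between the groups, and the log2 ratio of Itga6 to Itgb4 was 0.49 ± 0.34 in DSS + GAA and 0.59 ± 0.36 in DSS (SD, n = 4 each). With median centring both passed as higher (limma adjusted p = 0.0420 for Itga6 and 0.0382 for Itgb4), and Itgb4 also with trimmed mean scaling (0.0489). Itga3, the partner of Itgb1 in epithelial laminin binding, averaged 72.9 ± 3.30 TPM in DSS + GAA and 86.6 ± 9.81 TPM in DSS. Its groups did not overlap, yet it did not pass (log2 fold change -0.24 ± 0.11 SE, limma adjusted p = 0.122), and its sign turned with trimmed mean scaling and median centring.

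All 3 tested collagen-binding integrins were lower in DSS + GAA colon, and none of their groups overlapped. Itga1, a receptor with a preference for collagen IV found on smooth muscle, pericytes and some lymphocytes (chromosome 13, 114953096-115101964, minus strand), had 25.1, 17.1, 11.7 and 11.96 TPM in DSS + GAA libraries, against 52.4, 28.6, 37.6 and 33.0 TPM in DSS libraries. The log2 fold change was -1.18 ± 0.26 (SE, limma adjusted p = 0.0114), and the call held in every alternative. Itga2, a collagen receptor of epithelium and platelets, had 10.5, 10.7, 11.5 and 10.7 TPM in DSS + GAA libraries, against 23.2, 18.7, 21.4 and 11.8 TPM in DSS libraries. The DSS + GAA libraries lay within 1 TPM of each other, and DSS 5 lay just above them. The fitted log2 fold change was -0.70 ± 0.19 (SE, limma adjusted p = 0.0235). Itga10, known from cartilage, averaged 1.05 ± 0.206 TPM in DSS + GAA and 2.21 ± 0.323 TPM in DSS (SD, n = 4 each), a log2 fold change of -0.65 ± 0.15 (SE, limma adjusted p = 0.0124). Itga1 and Itga10 each share exon sequence with a predicted gene on the same strand, Gm49395 and Gm42957, so reads there could be split. Itga11, a fibroblast collagen receptor below the filter, had 1.70, 0.876, 0.410 and 0.480 TPM in DSS + GAA libraries, against 0.579, 0.435, 0.640 and 0.622 TPM in DSS libraries, with DSS + GAA 1 and 2 above the DSS range and DSS + GAA 4 below it.

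Of the 8 integrins that bind the arginine-glycine-aspartate motif, 4 were lower in DSS + GAA colon (Itgb8, Itga5, Itgb3 and Itga2b). The groups of each of these 4 did not overlap, which for Itga2b was fixed in advance by the filter. Itgb8, which pairs with Itgav and holds latent TGF-beta for activation (chromosome 12, 119158022-119238802, minus strand), had 1.86, 1.08, 0.660 and 0.529 TPM in DSS + GAA libraries, against 22.4, 22.3, 12.1 and 13.4 TPM in DSS libraries. The groups did not come near each other, with means of 1.03 ± 0.598 TPM in DSS + GAA and 17.6 ± 5.58 TPM in DSS (SD, n = 4 each), 17.0 times higher in DSS. The log2 fold change was -3.18 ± 0.27 (SE, limma adjusted p = 0.00263), and it was -4.05 with a pseudocount of 0.1 and -1.87 with a pseudocount of 5. The call held in every alternative.

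Itga5, the alpha subunit of the main fibronectin receptor (chromosome 15, 103344286-103366763, minus strand), had 49.4, 34.1, 15.1 and 18.0 TPM in DSS + GAA libraries, against 140, 133, 86.2 and 79.2 TPM in DSS libraries. All DSS + GAA libraries were below all DSS libraries. The fitted log2 fold change was -1.98 ± 0.36 (SE, limma adjusted p = 0.00678), and the call held in every alternative. Itgb3, which pairs with Itgav on vessels and mesenchyme and with Itga2b on platelets, had 16.5, 9.51, 5.25 and 5.63 TPM in DSS + GAA libraries, against 42.5, 19.8, 24.9 and 18.5 TPM in DSS libraries. Its log2 fold change was -1.48 ± 0.36 (SE, limma adjusted p = 0.0158), and the only alternative that ended the call was leaving out DSS 1 (limma adjusted p = 0.0524). Itga2b, the platelet alpha subunit, had 0.943, 0.462, 0.299 and 0.271 TPM in DSS + GAA libraries, against 2.72, 1.27, 1.62 and 1.04 TPM in DSS libraries. Its log2 fold change was -0.82 ± 0.22 (SE, limma adjusted p = 0.0224). Since Itga2b passed the filter through the DSS libraries alone, its direction and its lack of overlap were fixed by the filter.

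The other arginine-glycine-aspartate binding subunits were not called, though Itgav passed as lower with array quality weights, with the replicate block and without DSS + GAA 1, and Itgb5 with array quality weights. Itgav, the alpha subunit shared by Itgb3, Itgb5, Itgb6 and Itgb8, had 75.3, 47.2, 29.6 and 24.2 TPM in DSS + GAA libraries, against 101, 73.8, 81.0 and 51.7 TPM in DSS libraries (log2 fold change -0.89 ± 0.34 SE, limma adjusted p = 0.0706). Itgb6, the epithelial partner that activates TGF-beta, had 64.9, 42.8, 35.5 and 18.4 TPM in DSS + GAA libraries, against 31.6, 40.4, 43.9 and 40.3 TPM in DSS libraries. The Itgb6 DSS + GAA libraries lay on both sides of the DSS group (log2 fold change -0.07 ± 0.32 SE, limma adjusted p = 0.874), and the sign turned with scaling. Itgb5, a vitronectin receptor subunit, averaged 32.4 ± 8.13 TPM in DSS + GAA and 42.3 ± 9.47 TPM in DSS (log2 fold change -0.38 ± 0.22 SE, limma adjusted p = 0.201). Itga8, found on smooth muscle and mesenchyme, was at 1.17 to 3.19 TPM in DSS + GAA and 1.70 to 4.76 TPM in DSS (log2 fold change -0.42 ± 0.28 SE, limma adjusted p = 0.262).

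Relative to Itgav and to Itgb6, Itgb8 was lower in every DSS + GAA library than in any DSS library. The log2 ratio of Itgb8 to Itgav was -5.45 ± 0.08 in DSS + GAA and -2.15 ± 0.43 in DSS (SD, n = 4 each), a difference of -3.30. The log2 ratio of Itgb8 to Itgb6 was -5.33 ± 0.29 in DSS + GAA and -1.20 ± 0.63 in DSS, a difference of -4.13. Itga5 was also lower relative to its partner Itgb1, with a log2 ratio of -3.82 ± 0.35 in DSS + GAA and -2.79 ± 0.42 in DSS. The ratios and chain shares given here were chosen after the members' values had been seen and carry no test.

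**Figure D3:**
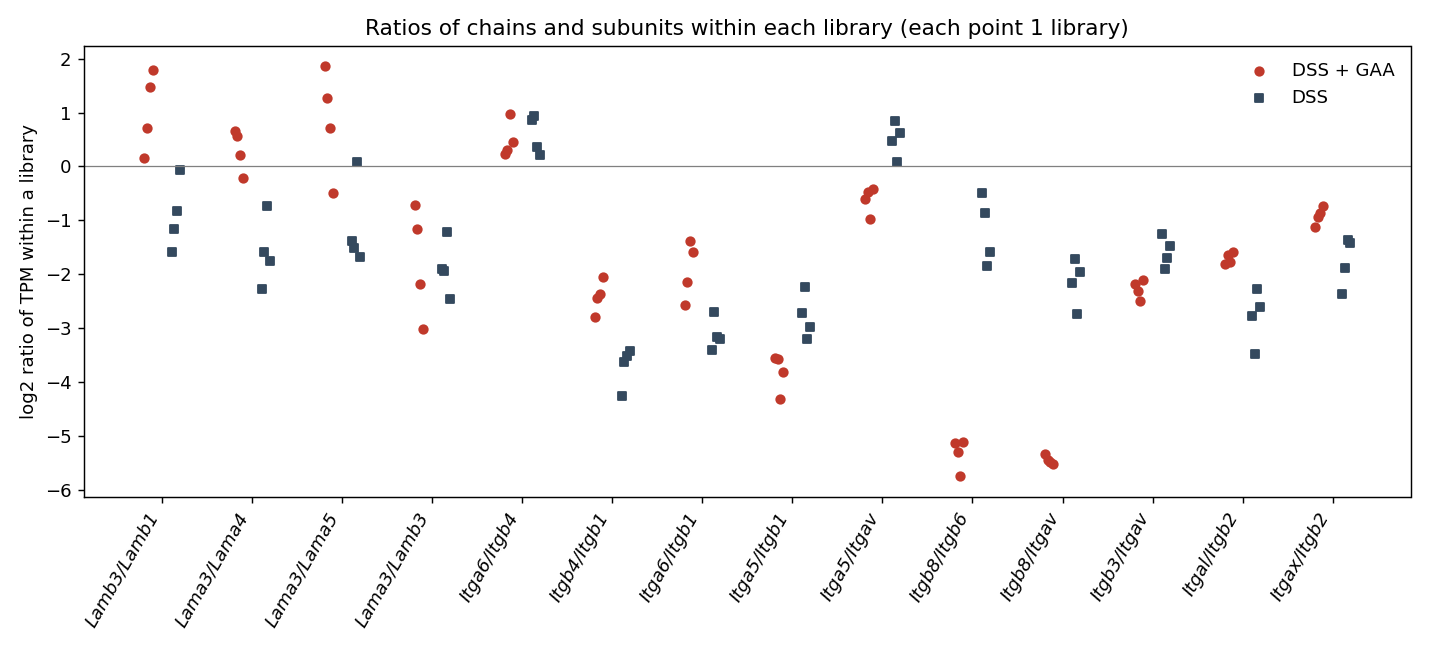
Log2 TPM ratio of pairs of members in each library, with DSS + GAA libraries (circles) left of DSS libraries (squares) and each point 1 library. Itgb8 to Itgav and Itgb8 to Itgb6 were lower in every DSS + GAA library than in any DSS library, and Itga6 to Itgb4 overlapped.

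Itgb1, the beta subunit shared by the collagen, fibronectin and most laminin receptors (chromosome 8, 128685654-128733200, plus strand), was the most abundant member per length in both groups. It had 583, 408, 300 and 253 TPM in DSS + GAA libraries, against 917, 629, 797 and 627 TPM in DSS libraries, and the groups did not overlap. Its log2 fold change was -0.998 ± 0.26 (SE, limma adjusted p = 0.0190). Relative to Itgb1, the hemidesmosome subunit Itgb4 had a log2 ratio of -2.41 ± 0.31 in DSS + GAA and -3.71 ± 0.38 in DSS (SD, n = 4 each), with no overlap. Itga9, a receptor for tenascin C and other matrix proteins, had 9.98, 6.87, 3.55 and 3.19 TPM in DSS + GAA libraries, against 14.7, 8.56, 14.1 and 10.6 TPM in DSS libraries. Its groups overlapped through DSS + GAA 1 and DSS 2, and the log2 fold change was -1.001 ± 0.32 (SE, limma adjusted p = 0.0395).

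The 3 tested leukocyte integrins were not called, and 2 of them had positive fold changes. Itgal, the alpha subunit of the lymphocyte integrin LFA-1, had 13.2, 9.58, 4.59 and 3.56 TPM in DSS + GAA libraries, against 3.95, 2.32, 5.44 and 3.33 TPM in DSS libraries (log2 fold change 0.77 ± 0.37 SE, limma adjusted p = 0.137). DSS + GAA 1 and 2 were above every DSS library, and DSS + GAA 4 and 5 were within the DSS range. Itgax, a subunit of dendritic cells and macrophages, had 21.3, 15.6, 8.60 and 6.47 TPM in DSS + GAA libraries, against 5.26, 6.99, 10.2 and 7.63 TPM in DSS libraries (log2 fold change 0.61 ± 0.34 SE, limma adjusted p = 0.188). Itgb2, their shared beta subunit, averaged 25.6 ± 15.9 TPM in DSS + GAA and 24.9 ± 3.10 TPM in DSS (SD, n = 4 each; limma adjusted p = 0.772). The log2 ratio of Itgal to Itgb2 was -1.70 ± 0.10 in DSS + GAA and -2.79 ± 0.51 in DSS, with no overlap. With quantile normalization Itgal passed as higher (limma adjusted p = 0.0319). Itgad, below the filter, was at 0.073 to 0.214 TPM in DSS + GAA and 0.037 to 0.057 TPM in DSS.

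**Figure D4:**
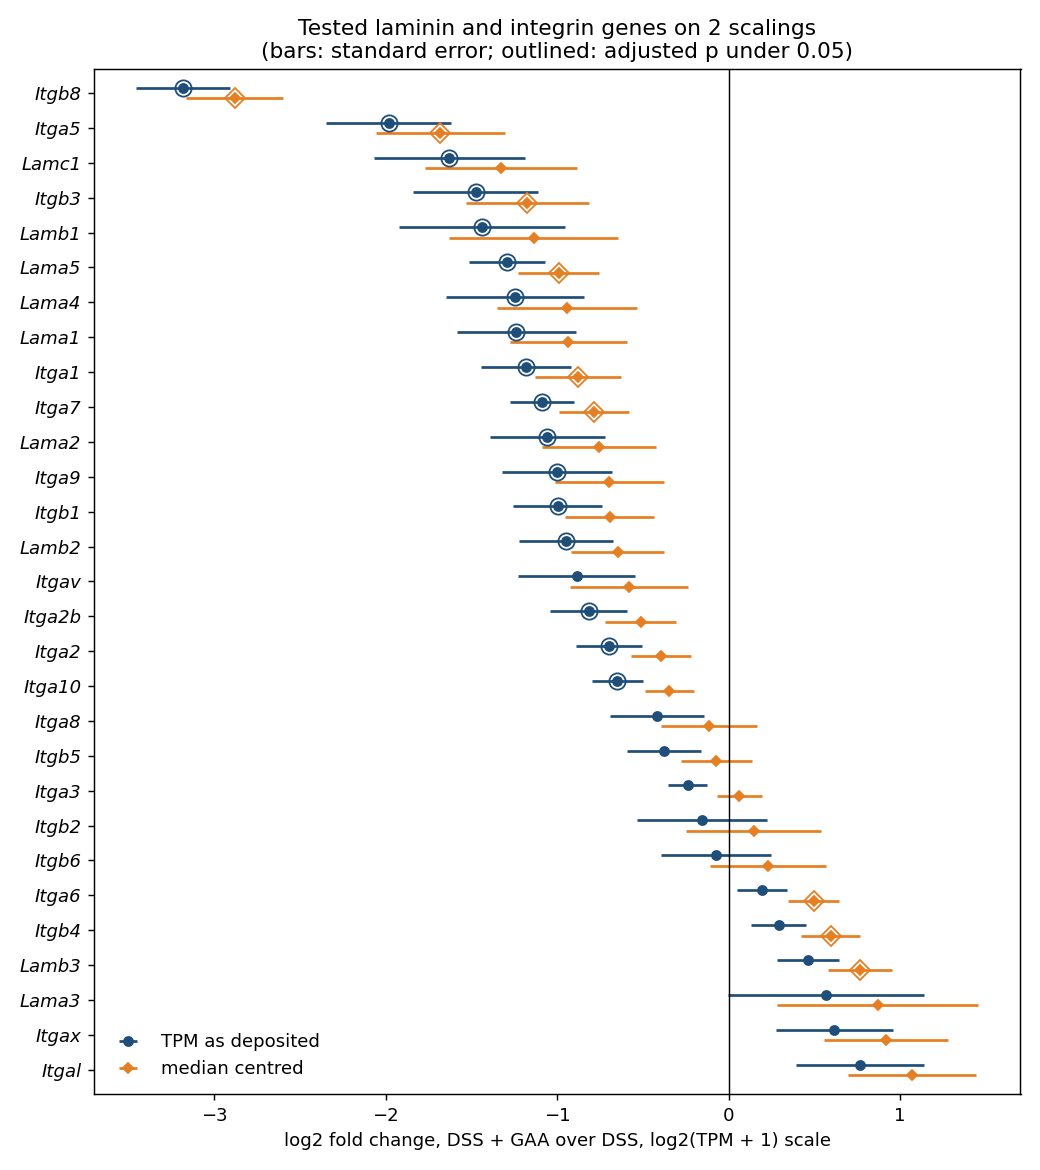
Log2 fold change of the tested members, DSS + GAA over DSS on the log2(TPM + 1) scale, for TPM as deposited (circles) and after median centring (diamonds), with bars for the limma standard error and outlines for an adjusted p under 0.05. Itgb8 at -3.18 and Itga5 at -1.98 are the most negative as deposited, and of these 2 scalings Lamb3, Itga6 and Itgb4 pass as higher after median centring alone.

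Groups of 11 of the 30 tested members, 36.7%, did not overlap and were lower in DSS + GAA, beside 27.6% of all tested genes. The count for higher in DSS + GAA was 0, beside 5.31% of all tested genes. Of the 11, Itga3 alone was not called, and the place of Itga2b among them was fixed by the filter. Only 1 of the 10 tested laminins, Lama5, was among them, against 10 of the 20 tested integrins.

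The members also shared an order among the DSS + GAA libraries. DSS + GAA 1 was the highest of its group for 27 of the 30 tested members, 90%, beside 38.7% of all tested genes, and the exceptions were Itga6, Itga2 and Itga10. DSS + GAA 1 and 2 both lay above 4 and 5 for 28 of 30 members, 93.3%, beside 33.5% of all tested genes. The summed TPM of related genes had this order too, in 4 of the 5 lists of partner genes and 12 of the 13 lists of cell type markers, the exceptions being hemidesmosome and non-integrin receptor genes and epithelial markers. The order took in members that were lower in DSS + GAA, such as Lamb1, and members that were not called, such as Lama3, Itgal and Itgb2. In the DSS group, DSS 1 was the highest for 17 of the 30 tested members, 56.7%, beside 39.8% of all tested genes. Over the tested members, the median ratio of the highest to the lowest library was 3.14 within DSS + GAA and 1.80 within DSS. This ratio was not taken over all tested genes, so the wider spread cannot be called particular to the members.

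**Figure D5:**
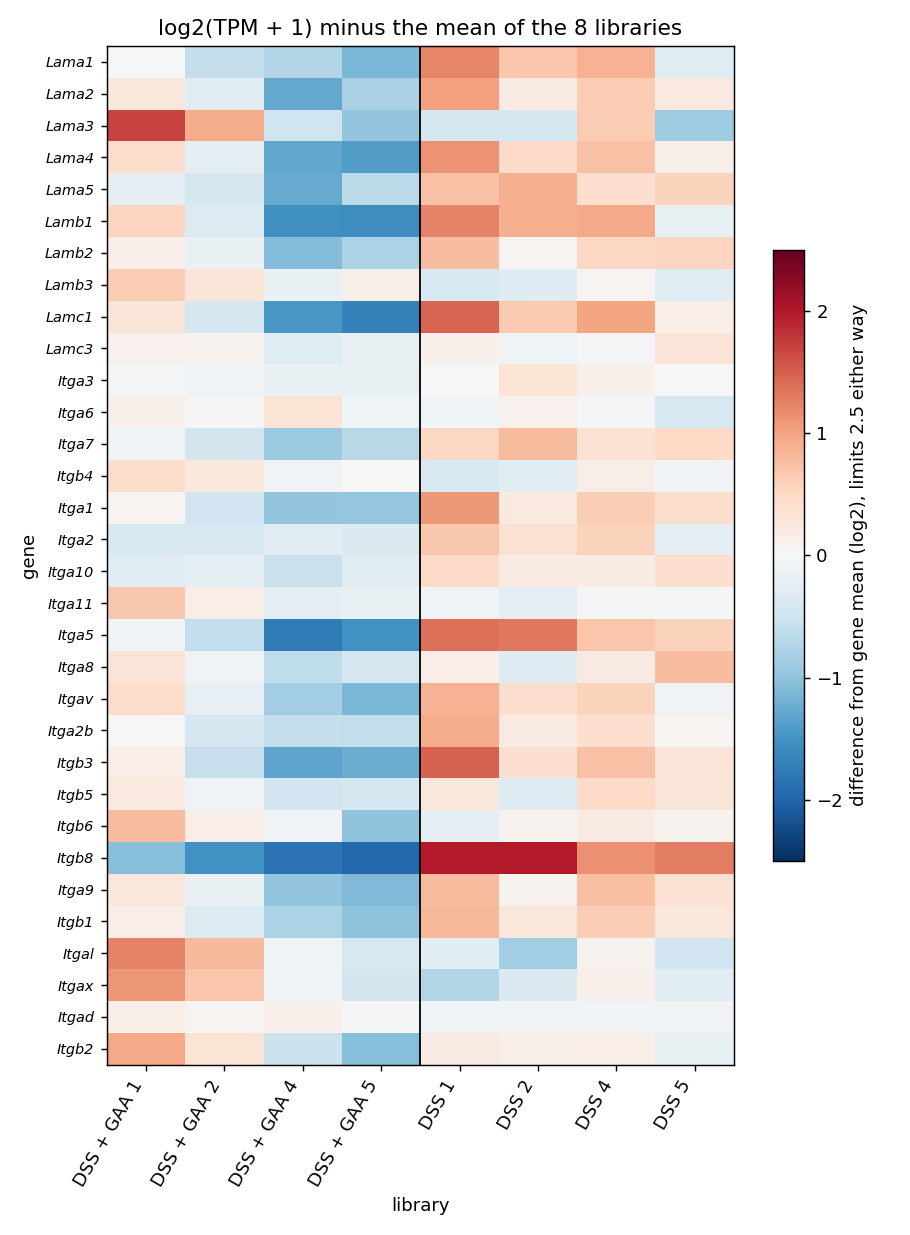
Log2(TPM + 1) of the members in each library, centred on the mean of each gene, with DSS + GAA libraries left of DSS libraries and a colour scale in log2 units. DSS + GAA 1 was the highest of its group for 27 of the 30 tested members.

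Genes that act with laminins and integrins were taken from lists chosen by function, to be read beside the 28.2% lower, 5.96% higher and median log2 fold change of -0.25 of all tested genes. Of 20 tested basement membrane partners, 12 were lower and 0 higher (15 lower and 0 higher at an unadjusted limma p under 0.05, where the shares of all genes are 37.2% and 8.81%), with a median log2 fold change of -1.20. Col4a1, a collagen IV chain, averaged 67.0 ± 46.2 TPM in DSS + GAA and 267 ± 108 TPM in DSS (SD, n = 4 each; log2 fold change -2.13, limma adjusted p = 0.0118), and Col4a2, its trimer partner, had a log2 fold change of -1.97 (limma adjusted p = 0.0123). Smoc2 had a log2 fold change of -1.92 (limma adjusted p = 0.00554), and Sparc, the most abundant of the list and a collagen-binding matrix protein, of -1.53 (limma adjusted p = 0.0268). Without DSS 1 the list's lower count was 3, and with median centring it was 5.

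Of 17 tested ligands of the arginine-glycine-aspartate binding integrins, 12 were lower and 0 higher (14 and 0 at an unadjusted limma p under 0.05), with a median log2 fold change of -1.51. Thbs1, thrombospondin 1, averaged 43.1 ± 30.8 TPM in DSS + GAA and 471 ± 253 TPM in DSS (SD, n = 4 each; log2 fold change -3.46, limma adjusted p = 0.00611). Ccn2, a matricellular protein and TGF-beta target, had a log2 fold change of -2.18 (limma adjusted p = 0.00536). Thbs2 had one of -1.51 (limma adjusted p = 0.00635). The lower count of this list was 7 without DSS 1.

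Of 10 tested hemidesmosome and non-integrin laminin receptor genes, 5 were lower and 1 higher, with a median log2 fold change of -0.52. The higher gene was Plec, which links Itgb4 to keratin, at 72.2 ± 21.0 TPM in DSS + GAA and 42.8 ± 12.3 TPM in DSS (SD, n = 4 each; log2 fold change 0.73, limma adjusted p = 0.0403), a call lost with the replicate block, with array quality weights, with no filter on low values, and without DSS + GAA 1 or 2, or DSS 1, 2 or 5. The lower genes included the sarcoglycans Sgcb (log2 fold change -1.12) and Sgce (-1.30) and the linker Dst (-0.61). Rpsa, the laminin receptor that is also a ribosomal protein, was the most abundant and was not called. The lower count was 2 with each of the 3 scalings, and 1 without DSS 1.

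Of 32 integrin activators and adhesion linkers, 12 were lower and 2 higher, with a median log2 fold change of -0.31, near that of all genes. The lower genes with the smallest p were Actn1 (log2 fold change -1.05), Kank1 (-0.91) and Parva (-0.66). The higher genes were Tns4, an epithelial tensin, at 105 ± 16.6 TPM in DSS + GAA and 47.5 ± 12.9 TPM in DSS (SD, n = 4 each; log2 fold change 1.15, limma adjusted p = 0.00585), and the actin cross-linker Actn4 (log2 fold change 0.61, limma adjusted p = 0.0306). The lower count was 7 without DSS 1, and 7 with trimmed mean scaling and with median centring, where the higher count was 4. The higher count was 1 with the replicate block and without DSS + GAA 2, DSS 1, DSS 2 or DSS 5. Of 5 tested ligands of leukocyte integrins, Jam2 (log2 fold change -1.34, limma adjusted p = 0.0174) and Jam3 (-1.21, 0.0213) were lower and 0 were higher (1 at an unadjusted limma p under 0.05), and F11r, the most abundant, was not called. No lower call of this list remained with quantile normalization, median centring or without DSS 1. Its higher count was 1 with trimmed mean scaling, with median centring and without DSS + GAA 5.

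Markers of some cell types that carry these genes differed between the groups. The counts called, here and in the next paragraph, are to be read beside the 28.2% lower and 5.96% higher of all tested genes. They are given for the main fit alone. The share of all genes called lower was 9.2% with median centring and 12% without DSS 1. The sums of smooth muscle, endothelial, macrophage and dendritic cell markers overlapped. In bulk tissue, fewer cells of a type and less RNA per cell cannot be told apart. Beside the epithelial members (Lama3, Lamb3, Itga6, Itgb4 and Itgb6), the summed TPM of 11 epithelial markers was 23520 to 25538 in DSS + GAA and 15225 to 18740 in DSS, with 4 called higher and 0 lower. Itga2, Lama5 and the uncalled Itga3, which epithelium also uses, had every DSS + GAA library under every DSS library. Beside the stromal and vascular members (Lama4, Lamb1, Lamc1, Itga1, Itga5 and Itgb3), the sums were 107 to 349 TPM in DSS + GAA and 487 to 840 TPM in DSS for pericytes (6 of 6 lower), 31.3 to 123 in DSS + GAA and 122 to 204 in DSS for endothelium (7 of 10 lower), and 417 to 1444 in DSS + GAA and 1646 to 4721 in DSS for fibroblasts (3 of 9 lower). The fibroblast sum rests largely on Dcn, which averaged 331 TPM in DSS + GAA and 1789 TPM in DSS, of mean sums of 795 and 2803 TPM. The sum without Dcn is not given. Of the tested fibroblast markers 6 were not called, and the 33.3% called lower are near the 28.2% of all tested genes. Beside Itga7, Itga8 and Lama2, the sum of 10 smooth muscle markers was 1653 to 3992 TPM in DSS + GAA and 2098 to 5522 TPM in DSS, with 1 lower. Enteric glia markers summed to 131 to 152 TPM in DSS + GAA and 156 to 194 TPM in DSS (4 of 6 lower), and enteric neuron markers to 82.5 to 236 in DSS + GAA and 369 to 518 in DSS (8 of 8 lower). Most of the glia sum was Erbb3, at a mean of 114 TPM in DSS + GAA and 98.7 TPM in DSS, of mean sums of 141 and 173 TPM. Erbb3 was not called and went the other way (log2 fold change 0.25, limma adjusted p = 0.331).

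Beside the leukocyte integrins, T and NK cell markers summed to 110 to 280 TPM in DSS + GAA and 52.6 to 69.6 TPM in DSS, with 7 of 9 higher. Neutrophil markers summed to 198 to 719 TPM in DSS + GAA and 2149 to 6517 TPM in DSS (8 of 10 lower) and dendritic cell markers to 7.49 to 24.0 in DSS + GAA and 13.2 to 27.5 in DSS (1 lower and 1 higher of 6). Ltf, a neutrophil marker that was not called, went the other way (log2 fold change 1.34, limma adjusted p = 0.0665). Macrophage markers summed to 542 to 2386 TPM in DSS + GAA and 1066 to 1331 TPM in DSS (2 of 10 lower), and without Lyz2, the most abundant, to 185 to 659 TPM in DSS + GAA and 504 to 591 TPM in DSS. Beside Itga2b and Itgb3, platelet markers summed to 48.9 to 55.6 TPM in DSS + GAA and 63.3 to 130 TPM in DSS (2 lower and 1 higher of 3 tested), with Treml1 at 0 in all 4 DSS + GAA libraries. Without Gp1bb, the most abundant in DSS + GAA and called higher, the platelet sum was 9.26 to 19.7 TPM in DSS + GAA and 36.5 to 104 TPM in DSS. Some called markers passed the filter through 1 group alone, namely Notch3, Ngp, Camp and Ppbp through DSS and Xcr1 through DSS + GAA, and without them 5 of 5 pericyte, 6 of 8 neutrophil and 1 of 2 platelet markers were lower and 0 of 5 dendritic cell markers were higher. Mesothelial markers, of which Msln was the 1 tested, summed to 1.26 to 2.09 TPM in DSS + GAA and 13.1 to 34.9 TPM in DSS. The part of these cell types in the members' values was not tested.

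Long genes were called lower more often. The longest transcripts of the members ran from 2970 to 11388 bases. Of tested genes with a transcript of at least 5000 bases, 38.1% were called lower, and 13 of the 19 members of that length. Of shorter genes 25.4% were called lower, and 4 of the 11 members. With each library's trend with length and GC content removed, 15 members were lower and 1, Lamb3, was higher.

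The authors' deposited table gives a false discovery rate under 0.05 to 13 of the 33 members as lower and 6 as higher, beside 16.2% and 10.3% of all 18262 genes. The 6 higher in the authors' deposited table were Lama3, Lamb3, Itga11, Itgal, Itgax and Itgad. Itga11 and Itgad were below the filter and not tested in the limma fit, while Lama3, Lamb3, Itgal and Itgax did not pass in it. Some members called lower by limma were not called in the authors' deposited table. They were Lamb2 (deposited false discovery rate 0.0847), Itga2 (0.2304), Itga9 (0.0618) and Itgb1 (0.1003). No source used here states which test gave the deposited values.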

How the data were processed

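Total RNA of colon from 4 DSS + GAA and 4 DSS libraries was selected with oligo(dT) and sequenced on an MGI-T7 machine (paired reads), per the labels' protocols. The authors deposited TPM per gene and library, and, for each gene, their log2 fold change, p-value and false discovery rate. Per the submitters' processing notes, reads were handled with GATK, SAMtools, edgeR, Subread, featureCounts, Bowtie2, HISAT2 and Trimmomatic on mm10, with no versions or roles given. TPM columns add up to the same total, so depth is unknown and no counting interval can be given.

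Values were put on log2(TPM + 1), filtered at 1 TPM in at least 4 of 8 libraries (14217 genes kept, 4045 left out) and fitted by group alone in R 4.3.3 (limma 3.58.1, statmod 1.5.0) with robust empirical Bayes and a variance trend, checked on simulated data. The simulated data had independent noise for each gene and few changed genes, as many raised as lowered. That check therefore does not cover the general shift or the shared library order seen here. Two-sided p-values were adjusted over every tested gene (Benjamini-Hochberg). Coordinates and transcript lengths are from GENCODE vM21 (GRCm38). Alternatives changed the pseudocount, filter, scaling between libraries, length and GC trend, empirical Bayes, library weights, a replicate block and the libraries used. The members, lists and alternatives were chosen with earlier results of these data known. From each list of partner genes, up to 3 called genes with the smallest p in each direction and the most abundant gene are named. Of the cell type markers, Dcn, Erbb3, Lyz2, Gp1bb, Ppbp, Xcr1 and Msln are among the genes this rule gives, and its other genes are not named. Treml1, Mettl7b, Notch3, Ngp, Camp and Ltf were named after their values were seen. No label states that the libraries come from different animals, so the spread that p-values measure may be technical. A member, counted among the 33, is not reported here by name or value and is in no figure.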

Additional observations from a re-analysis of the deposited data

Results flagged for a closer look

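In 3 of 66 groups of 4 libraries, 1 library lay far from the other 3 by Dixon's 95% criterion, and chance gives about 1 in 20 groups. Lamb3 was at 62.3 TPM in DSS 4, beside 48.1 TPM in the nearest DSS library. Itga2 was at 11.5 TPM in DSS + GAA 4, beside 10.7 TPM in the nearest DSS + GAA library. Itga10 was at 0.743 TPM in DSS + GAA 4, beside 1.13 TPM in the nearest DSS + GAA library.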

How the results depend on the processing

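Of the 17 members called lower, 5 passed in every alternative: Lama5, Itga7, Itga1, Itga5 and Itgb8. None of the 17 changed sign in any alternative in which it was tested. The lower count was 17 as deposited, 8 with trimmed mean scaling, 8 with quantile normalization, 6 with median centring, and 5 to 18 with 1 library left out. The higher count was 0 as deposited, 2, 2 and 3 with those scalings, 1 with length and GC trends removed, and 0 to 1 with 1 library left out. These scalings moved the median log2 fold change of all genes to -0.004, 0.020 and 0.052, against -0.25 as deposited, and the share of all calls that were lower to 46.6%, 48.8% and 37.7%, against 82.5%. The table does not say which scaling fits, and the cause was not tested.

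The sign of some uncalled members turned. With trimmed mean scaling the log2 fold change was 0.030 for Itga3, 0.19 for Itgb6 and 0.10 for Itgb2. With quantile normalization it was 0.016 for Itga8, 0.13 for Itgb6 and 0.12 for Itgb2. With median centring it was 0.063 for Itga3, 0.23 for Itgb6 and 0.15 for Itgb2, and with length and GC trends removed 0.023 for Itgb6. With 1 library left out it ran from -0.34 to 0.25 for Itgb6 and -0.50 to 0.17 for Itgb2, and turned without DSS + GAA 5.

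With the replicate number as a block, 18 members were lower and 0 higher, and the added call was Itgav. With array quality weights 19 were lower, Itgav and Itgb5 being added, beside 37.9% of all genes. The deviations of libraries with the same number correlated at 0.18, -0.11, 0.15 and -0.030 for replicates 1, 2, 4 and 5. Replicates 1 and 4 correlated best with their own number, and replicates 2 and 5 did not. With so few libraries this cannot decide whether the numbers pair them, and no label states it.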
